A study of Mus musculus with 24 samples.

Results

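H/ACA small nucleolar RNAs (snoRNAs) are short nuclear RNAs, here taken as every gene symbol that begins with Snora followed by a digit. This naming rule found 39 genes among the 38019 symbols listed for mouse limb buds, and a gene was described at a stage when it reached 1 TPM, a transcript abundance scaled for gene length and for the total of the library, in at least 3 of the 12 libraries of that stage. By that measure 35 were described at embryonic day E10.5 and 19 at E11.5, and all 19 were also described at E10.5. Total RNA was sequenced from forelimb (FL) and hindlimb (HL) buds of C57/Bl6 embryos, 3 libraries for each limb, stage and genotype, in 8 groups. All embryos carried the floxed U11 gene (U11flx/flx), which encodes an RNA of the minor spliceosome. WT embryos lacked Cre (Prrx1-Cre-), and mutant embryos carried it (Prrx1-Cre+). The Prrx1 promoter drives Cre in limb bud mesenchyme, so blood, vessel, skin and other cells of the dissected bud are not its main target. No drug or other treatment is named. The labels do not say which embryos gave which library, so the p-values measure the spread between libraries, which may be partly technical.

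An H/ACA snoRNA folds into hairpins joined by a hinge that carries the H box, and ends just after an ACA triplet. It is bound by the proteins Dkc1, Nop10, Nhp2 and Gar1, and most members base-pair with ribosomal or spliceosomal RNA so that Dkc1 can turn a chosen uridine into pseudouridine. Most are cut out of introns of host genes that encode ribosomal proteins, translation factors or untranslated RNAs, and the introns of hosts are mainly removed by the major spliceosome.

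The sequences of 5 members are shown because the abundant pair, another abundant member and the members with the clearest differences between groups are among them. They come from the GENCODE M21 transcripts (GRCm38, the assembly also called mm10). Capitals mark an ACA triplet with 1 to 4 bases after it and a match to the H box pattern ANANNA in the central one of 3 equal parts of the transcript. Snora44 has no ACA in that window, and Snora78 has no such ANANNA match.
Snora73a: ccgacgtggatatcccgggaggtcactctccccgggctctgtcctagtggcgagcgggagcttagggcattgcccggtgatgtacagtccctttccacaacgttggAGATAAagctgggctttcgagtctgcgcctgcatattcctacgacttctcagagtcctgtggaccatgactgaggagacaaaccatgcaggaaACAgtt
Snora73b: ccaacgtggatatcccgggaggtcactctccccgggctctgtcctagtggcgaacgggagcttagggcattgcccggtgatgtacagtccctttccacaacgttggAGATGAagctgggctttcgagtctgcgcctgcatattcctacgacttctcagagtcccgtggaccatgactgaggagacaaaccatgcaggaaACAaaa
Snora7a: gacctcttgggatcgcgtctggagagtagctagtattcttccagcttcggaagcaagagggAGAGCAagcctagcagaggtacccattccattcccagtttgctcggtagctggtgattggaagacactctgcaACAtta
Snora78: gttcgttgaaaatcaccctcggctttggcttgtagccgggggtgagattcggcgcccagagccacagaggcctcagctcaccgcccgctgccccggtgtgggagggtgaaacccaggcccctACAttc
Snora44: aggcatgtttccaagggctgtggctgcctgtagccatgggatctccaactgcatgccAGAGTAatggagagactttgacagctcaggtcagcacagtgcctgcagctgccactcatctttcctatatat

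The annotated members were alike in size and in these sequence marks. Their lengths ran from 121 to 205 nt with a median of 132 nt. An ACA in the end window was found in 37 of 39 (94.9%, all but Snora44 and Snora81), an ANANNA match in the central part in 36 (92.3%, all but Snora65, Snora74a and Snora78), and both in 34 (87.2%). Searched on the transcript strand in the same way, 99 annotated Snord transcripts, the box C/D class that guides ribose methylation, had the ACA in 3 (3.03%), the ANANNA match in 49 (49.5%) and both in 0. These matches describe letters only. Snora73a and Snora73b were identical at 198 of 205 aligned positions (96.6%), and no other pair of members passed 68.0%, the value for Snora2b and Snora34. Reads from Snora73a and Snora73b could therefore be divided between the 2 genes by the authors' counting, so their separate levels are uncertain.

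Of the 39 members, 36 lie on the strand of an annotated host gene and 3 (Snora17, Snora43 and Snora57) have none. Classed by gene name, the hosts encode ribosomal proteins for 11 members and translation factors for 4, and 8 members lie in noncoding host RNA genes. The remaining 13 lie in hosts with other names, and whether each encodes a protein was not checked. Snora74a is among them, with the hosts Gm28285 and AC121821.1. Within their hosts 21 members overlap an annotated exon of some transcript and 15 lie in introns only. Of all 39, 5 lie opposite an annotated antisense gene. The strand counted by the authors is not given in the sources used here, so reads of a member, its host exon and an antisense partner may not be fully separated. Snora73a (chr4:132352775-132352979) and Snora73b (chr4:132352322-132352526) lie on the minus strand within introns of Rcc1, and in the noncoding host Snhg3, where Snora73a overlaps an exon and Snora73b an intron only. Snora44 (chr4:132309941-132310069, plus strand) overlaps an exon of the noncoding host Snhg12, 340 bp from Snora16a and 170 bp from Snora61. Both clusters lie on the chromosome of the targeted gene Rnu11 (chr4:132270080-132270213, minus strand), Snora44 at 39.7 kb and Snora73a at 82.6 kb from it. Snora78 (chr17:24719676-24719803, minus strand) lies in an intron of the noncoding host Snhg9 and opposite an intron of Rps2, 968 bp from Snora64, which overlaps an exon of Rps2 on the other strand. Snora7a (chr6:115807975-115808114, minus strand) overlaps an exon of Rpl32.

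TPM keeps no read depth. As a substitute, 16133 to 26302 symbols were above 0 in an E10.5 library and 21095 to 26243 in an E11.5 library, and replicate 1 of E10.5 FL WT (16133) and of E10.5 HL WT (16639) had the fewest. Nuclear protein-coding genes held only 13.6% to 32.8% of the deposited TPM of a library, so levels below are rescaled TPM, with each library multiplied by 0.622 to 1.66 (E10.5) or 0.705 to 1.30 (E11.5) so that the median over well-detected genes is equal within a stage. Limb mesenchyme markers were all above 1 TPM in every library (11 of 11). The summed level of 5 hindlimb markers was 25.0 to 49.5 rescaled TPM in HL groups and 0.508 to 2.08 in FL groups, except for E10.5 FL mutant replicate 3 at 21.0. Rnu11, the targeted gene, was on average 37.1% of WT in mutant FL and 36.3% in mutant HL at E10.5, and 13.5% in mutant FL and 25.4% in mutant HL at E11.5 (two-sided exact permutation p = 0.2, 0.1, 0.1 and 0.1, where 0.1 is the smallest possible). In E10.5 FL the library labelled WT replicate 1 (292 rescaled TPM) was below the library labelled mutant replicate 3 (570.3). Xist reached 5 TPM in 6 mutant libraries (E10.5 FL and HL replicates 1 and 3, E11.5 FL and HL replicate 3) and in no WT library. Replicate libraries correlated at r = 0.919 to 0.980 over all tested genes and at 0.619 to 0.961 over the tested H/ACA snoRNAs (24 pairs each, across genes, which are not independent).

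The H/ACA snoRNAs together held 0.429% to 0.983% of the deposited TPM in E10.5 libraries and 0.525% to 0.814% in E11.5 libraries. The pair Snora73a and Snora73b, also known as U17 or E1 RNA and needed for early cleavage of pre-ribosomal RNA, made up 36.6% to 66.9% of that sum in the earlier libraries and 59.8% to 70.2% in the later ones. The next members by mean level were Snora74a, Snora44 and Snora78 at E10.5 and Snora7a, Snora78 and Snora68 at E11.5. The number of members above 0 was 23 to 33 per library at E10.5, lowest in the same WT replicates 1 of FL and HL, and 13 to 20 at E11.5.

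**Figure D1:**
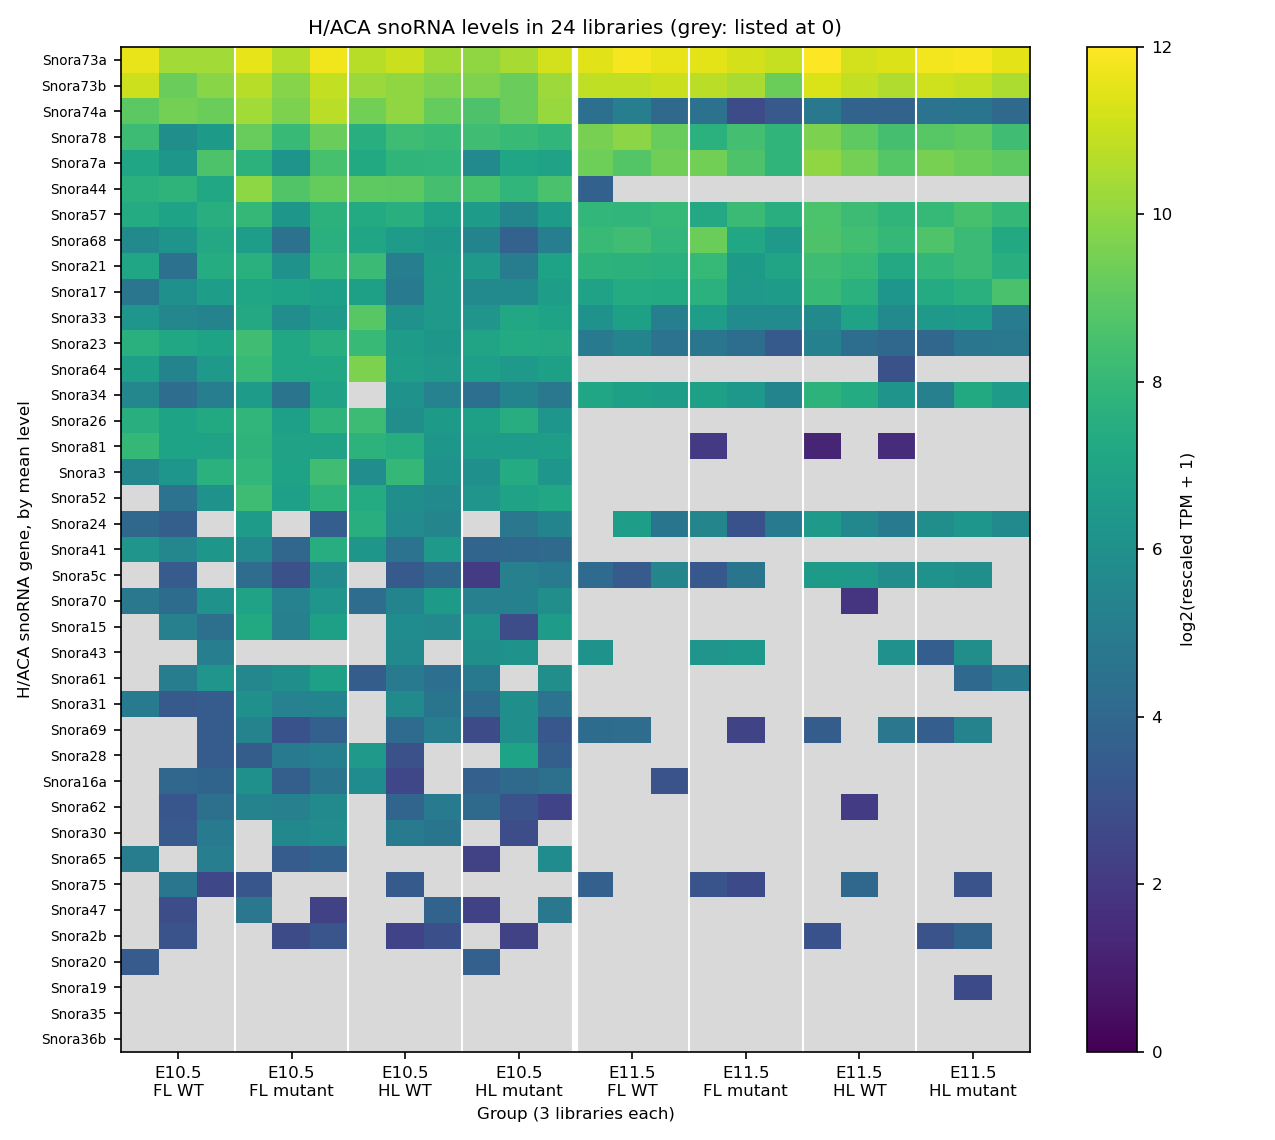
Level of each of the 39 H/ACA snoRNA genes (rows, ordered by mean) in each of the 24 libraries (columns, 3 per group), coloured by log2(rescaled TPM + 1), with grey for a value listed at 0. Snora73a and Snora73b have the highest means. Grey on the right includes the 16 members described at E10.5 but not at E11.5, among them Snora44, which was abundant at E10.5. Another 4 members were described at neither stage.

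Above 0 in all 24 libraries were 11 members, namely Snora7a, Snora17, Snora21, Snora23, Snora33, Snora57, Snora68, Snora73a, Snora73b, Snora74a and Snora78. Listed at 0 in all 12 E11.5 libraries were 10 of the 35 members described at E10.5 (28.6%), and 3 of these (Snora3, Snora26 and Snora41) were above 0 in all 12 E10.5 libraries. Among box C/D snoRNAs this happened to 2 of 10 described at E10.5 (20%), among nuclear protein-coding genes to 0 of 10458, and among all genes to 73 of 11955 (0.611%). Another 6 members (Snora16a, Snora44, Snora61, Snora62, Snora64 and Snora70) were above 0 in only 1 or 2 E11.5 libraries. Neither stage described Snora19, Snora20, Snora35 and Snora36b, and the last 2 were listed at 0 in all 24 libraries. Snora35 lies in an intron of Htr2c, a serotonin receptor gene.

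The stages also differ in how reads were prepared, since 3 nt were trimmed from E10.5 reads and none from E11.5 reads, so stage and trimming cannot be told apart and no test was made between stages. On the deposited scale Snora44 was 127 to 769 TPM at E10.5 and listed at 0 in 11 of 12 E11.5 libraries. Snora74a, whose human counterpart U19 guides a site in large-subunit ribosomal RNA, was 414 to 1054 TPM at E10.5 and 8.295 to 28.3 TPM at E11.5. Snora23 was 91.8 to 352 TPM at E10.5 and 12.8 to 33.8 TPM at E11.5. For these 3 members the values of the stages did not overlap. Snora73a and Snora73b stayed the most abundant members at both stages.

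The members that were not described at E11.5 lie in hosts of several classes. Of members in ribosomal protein genes 11 were described at E10.5 and 5 at E11.5, and of those in noncoding host RNA genes 8 and 4. The counts were 10 and 6 for hosts with other names, 3 and 1 for translation factor genes, and 3 and 3 for members with no host. The 16 members described at E10.5 only had a median length of 132 nt and a median E10.5 level of 42.7 TPM, whereas the 19 described at both had 137 nt and 119 TPM. Snora44 was the most abundant of the 16, with an E10.5 mean of 404 TPM.

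Mutants were compared with WT in each limb and stage to ask what loss of U11 does to these RNAs. A limma fit on log2(rescaled TPM + 1) over all tested genes was used, in which a gene passed at a Benjamini-Hochberg adjusted p under 0.05. In that fit the targeted gene Rnu11 itself passed only in E11.5 FL (-2.92, limma adjusted p = 0.000658). It did not pass in E11.5 HL (-1.90, limma adjusted p = 0.0764) or in either limb at E10.5. A member that did not pass in those comparisons may therefore still have changed. Fold changes on this scale understate the change of low genes. In these dissected buds, fewer cells of a type and less RNA per cell cannot be told apart.

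In E11.5 FL, Snora78 fell in mutants and was the only H/ACA snoRNA past the threshold in any of the 10 comparisons made. Its rescaled TPM was 734, 961 and 589.5 in the 3 WT libraries and 201, 336 and 234 in the 3 mutant libraries. Every mutant library was below every WT library, and the change was -1.57 ± 0.31 (log2, SE; limma adjusted p = 0.0316), with means of 257 and 762. Of all 11126 genes tested, 1.74% passed in this comparison. In E11.5 HL the values were 802, 527 and 356 in WT and 472, 518 and 314 in mutants, which overlapped (-0.32 ± 0.31, adjusted p = 0.808). The difference of the mutant effect between limbs was 1.25 ± 0.44 (adjusted p = 0.338), so an effect particular to FL was not shown. The call on Snora78 depended on the settings. The change stayed between -1.78 and -1.05 in the 14 alternatives, but the adjusted p rose to between 0.0557 and 0.117 without any one of WT replicates 2 and 3 or mutant replicates 1, 2 and 3, and was 0.0446 without WT replicate 1.

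No other abundant member passed the threshold in E11.5 FL. Snora73b was 1858, 1834 and 2123 in WT and 1749, 1415 and 639 in mutants. It was the other member, besides Snora78, whose groups did not overlap on the rescaled values (-0.73 ± 0.33, adjusted p = 0.222). On TPM as deposited they overlapped, at 1947, 1499 and 1815 in WT and 1912, 1971 and 907 in mutants. Its change lay between -1.02 and -0.21 over 14 alternatives. Snora73a was 2804, 3611 and 3095 in WT and 2918, 2416 and 1958 in mutants, with overlap (-0.39 ± 0.25, adjusted p = 0.373). Snora7a, whose human counterpart guides large-subunit ribosomal RNA, was 655, 439 and 664 in WT and 685, 397 and 232 in mutants, again with overlap (-0.53 ± 0.37, adjusted p = 0.413). Snora68 was 281, 314 and 243 in WT and 628, 142 and 89.8 in mutants, so that its highest and its lowest values were both in mutants. Of the 19 members tested 13 were lower and 5 higher, and 2 of 19 had groups without overlap, where 25.7% of all tested genes did.

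**Figure D2:**
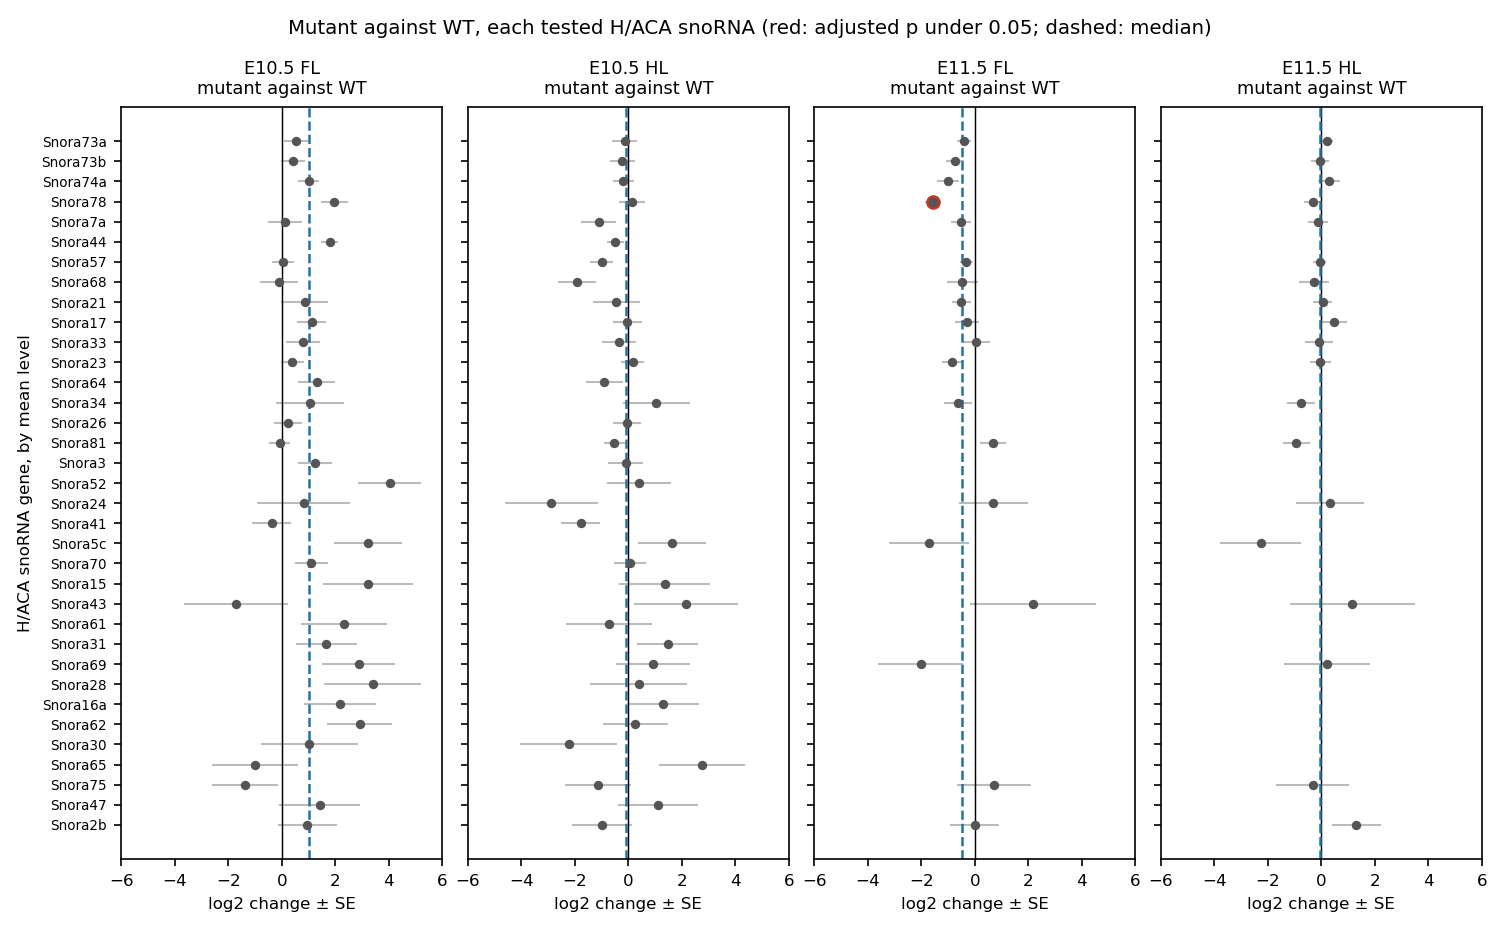
Log2 change of each tested H/ACA snoRNA in mutants against WT (points, with the standard error as bars) in each limb and stage, with 35 members at E10.5 and 19 at E11.5. The red point is Snora78 in E11.5 FL, and the dashed line is the median of the members, which stood at 1.02 in E10.5 FL and near 0 in both HL comparisons.

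The sign of the members' median in E11.5 FL depended on the scale. It lay below the median of all genes on every scale used. The members' median was -0.47 on the rescaled values, beside -0.02 for all genes. On TPM as deposited it was 0.01, but there the median of all genes was 0.39, so that the members stood 0.38 below it. Scaled to snoRNA genes the members' median was -0.01, beside 0.35 for all genes. The largest changes by log2 among low members were those of Snora69 (-2.02 ± 1.59), Snora5c (-1.71 ± 1.50) and Snora43 (2.18 ± 2.34), and each rests on libraries listed at 0. The share of nuclear protein-coding genes in the deposited TPM was 18.0% to 22.9% in E11.5 FL mutants and 14.7% to 17.3% in WT, without overlap, and its part in these results was not tested.

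Markers of other cell types were read in the same E11.5 FL comparison. All 8 endothelial markers were higher in mutants and none passed the threshold, with summed levels of 18.4 to 25.2 rescaled TPM in mutants and 14.4 to 16.96 in WT, without overlap. Of 6 myogenic markers tested 5 were higher, and Lbx1, a marker of migrating limb muscle precursors, passed (0.52 ± 0.09, limma adjusted p = 0.0192), while the sums overlapped, at 9.15 to 16.2 in mutants and 7.33 to 10.8 in WT. All 4 myeloid markers tested were higher and none passed, with overlapping sums of 5.99 to 15.1 in mutants and 5.31 to 8.01 in WT. Of 10 surface ectoderm markers 7 were lower and none passed, with sums of 48.65 to 60.9 in mutants and 65.2 to 83.3 in WT, without overlap. Of 11 limb mesenchyme markers 6 were lower and 5 higher, and Pdgfra, a growth factor receptor of mesenchyme, passed as lower (-0.40 ± 0.08, limma adjusted p = 0.0411), while the sums overlapped, at 190.5 to 224.7 in mutants and 206.1 to 242 in WT. The sums of erythroid markers overlapped, at 2706 to 3243 in mutants and 2071 to 4294 in WT. Those of neural markers did too, at 9.22 to 11.9 in mutants and 7.56 to 9.39 in WT. None of these markers was at 0 in all libraries of a group. The part of these cells in the fall of Snora78 was not tested.

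In E11.5 HL no member passed the threshold, beside 0.0180% of all genes, and 0 of 19 had groups without overlap, beside 11.4%. None had an unadjusted p under 0.05, and the smallest adjusted p was 0.754. The members' median was -0.05 (8 higher, 11 lower). Snora73a was 4294, 2286 and 2628 in WT and 3541, 3776 and 2875 in mutants, and Snora73b was 2539.8, 1886 and 1523 in WT and 2222, 1977 and 1487 in mutants. Both pairs of groups overlapped (0.19 ± 0.25 and -0.05 ± 0.33). The largest rises by log2 were those of Snora2b (1.30 ± 0.91), Snora43 (1.15 ± 2.34) and Snora17, and the largest falls those of Snora5c (-2.27 ± 1.50), Snora34 (-0.75 ± 0.52) and Snora78. None of these passed the threshold.

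In E10.5 FL most H/ACA snoRNAs were higher in mutants, and none passed the threshold. Of 35 tested, 29 were higher and 6 lower, and the members' median change was 1.02, beside 0.02 for all genes. The share of all genes past the threshold was 0.0251%. A total of 6 members had an unadjusted p under 0.05, and the smallest adjusted p was 0.276, that of Snora44. The groups did not overlap for 8 of 35 members, all higher in mutants (Snora17, Snora28, Snora31, Snora44, Snora52, Snora62, Snora64 and Snora74a), beside 10.4% of all genes in either direction. On TPM as deposited the groups of Snora17, Snora28 and Snora64 overlapped, while those of Snora15 and Snora78 did not.

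Snora44, whose human counterpart guides small-subunit ribosomal RNA, was 193, 219 and 139.9 in E10.5 FL WT and 998, 421 and 580.5 in mutants. All mutant libraries were above all WT libraries (1.78 ± 0.32, adjusted p = 0.276), with means of 666 and 184. Snora74a was 499, 708 and 634 in WT and 1299, 804 and 1750.2 in mutants, without overlap (1.01 ± 0.39, adjusted p = 0.905). Snora78 was 297, 61.3 and 91.6 in WT and 593, 279.8 and 615 in mutants, where WT replicate 1 was above mutant replicate 2 (1.97 ± 0.49, adjusted p = 0.698). This difference was in the opposite direction to that in E11.5 FL. Snora73a was 3101, 1279.8 and 1306 in WT and 2973, 1583 and 3446 in mutants, and WT replicate 1 was above 2 of the mutant libraries (0.55 ± 0.45). Snora73b was 2162, 602 and 918 in WT and 1675, 913 and 1903 in mutants, with the highest value in WT (0.43 ± 0.45). The largest rises by log2 were those of Snora52 (4.03 ± 1.18), Snora28 (3.39 ± 1.80) and Snora15 (3.22 ± 1.70), each listed at 0 in WT replicate 1. The largest falls were those of Snora43 (-1.71 ± 1.94), Snora75 (-1.36 ± 1.24) and Snora65 (-1.004 ± 1.60).

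Several measures moved with the E10.5 FL difference. The summed level of 10 erythroid markers was 5197 to 6483 rescaled TPM in mutants and 2377 to 3362 in WT, without overlap, with no listed marker at 0 in all libraries of a group. All 9 erythroid markers tested were higher and none passed the threshold. All 11 limb mesenchyme markers were lower and none passed, with summed levels of 134.2 to 228.1 in mutants and 228.4 to 286.6 in WT. Of 10 surface ectoderm markers 9 were higher and none passed, with sums of 66.6 to 118.8 in mutants and 63.1 to 67.9 in WT, which overlapped. The sums of endothelial, myogenic, neural and myeloid markers overlapped as well. The part of these cells in the result was not tested. Without the mutant replicates 1 and 3, in which Xist was at 5 TPM or more, the members' median was 0.32. Without the library labelled WT replicate 1 and the library labelled mutant replicate 3, whose Rnu11 levels are out of order, it was 0.75. Scaled to snoRNA genes it was 0.63, beside -0.36 for all genes.

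In E10.5 HL the members' median was -0.10 (15 higher, 20 lower) and no member passed the threshold, beside 0.00836% of all genes. A total of 3 members had an unadjusted p under 0.05, and every adjusted p was 1. The groups did not overlap for 5 of 35 members (Snora7a, Snora24, Snora41, Snora57 and Snora68), all lower in mutants, beside 5.85% of all genes. Snora68 was 132, 96.8 and 81.6 in WT and 41.2, 12.5 and 34.0 in mutants (-1.92 ± 0.70, adjusted p = 1). Snora7a was 156, 228 and 234 in WT and 52.5, 130.3 and 118 in mutants (-1.11 ± 0.64, adjusted p = 1). In both, every mutant library was below every WT library, by less than the test required. Snora73a was 1702, 2118 and 1252 in WT and 1031, 1385 and 2353 in mutants, and Snora78 was 186, 307 and 272 in WT and 318, 275 and 238 in mutants. These groups overlapped. The largest rises by log2 were those of Snora65 (2.74 ± 1.60), Snora43 (2.16 ± 1.94) and Snora5c (1.63 ± 1.27), and the largest falls besides Snora68 those of Snora24 (-2.88 ± 1.74) and Snora30 (-2.23 ± 1.81). The median was 0.01 on TPM as deposited, beside 0.10 for all genes. Scaled to snoRNA genes it was 0.40, beside 0.41 for all genes.

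**Figure D3:**
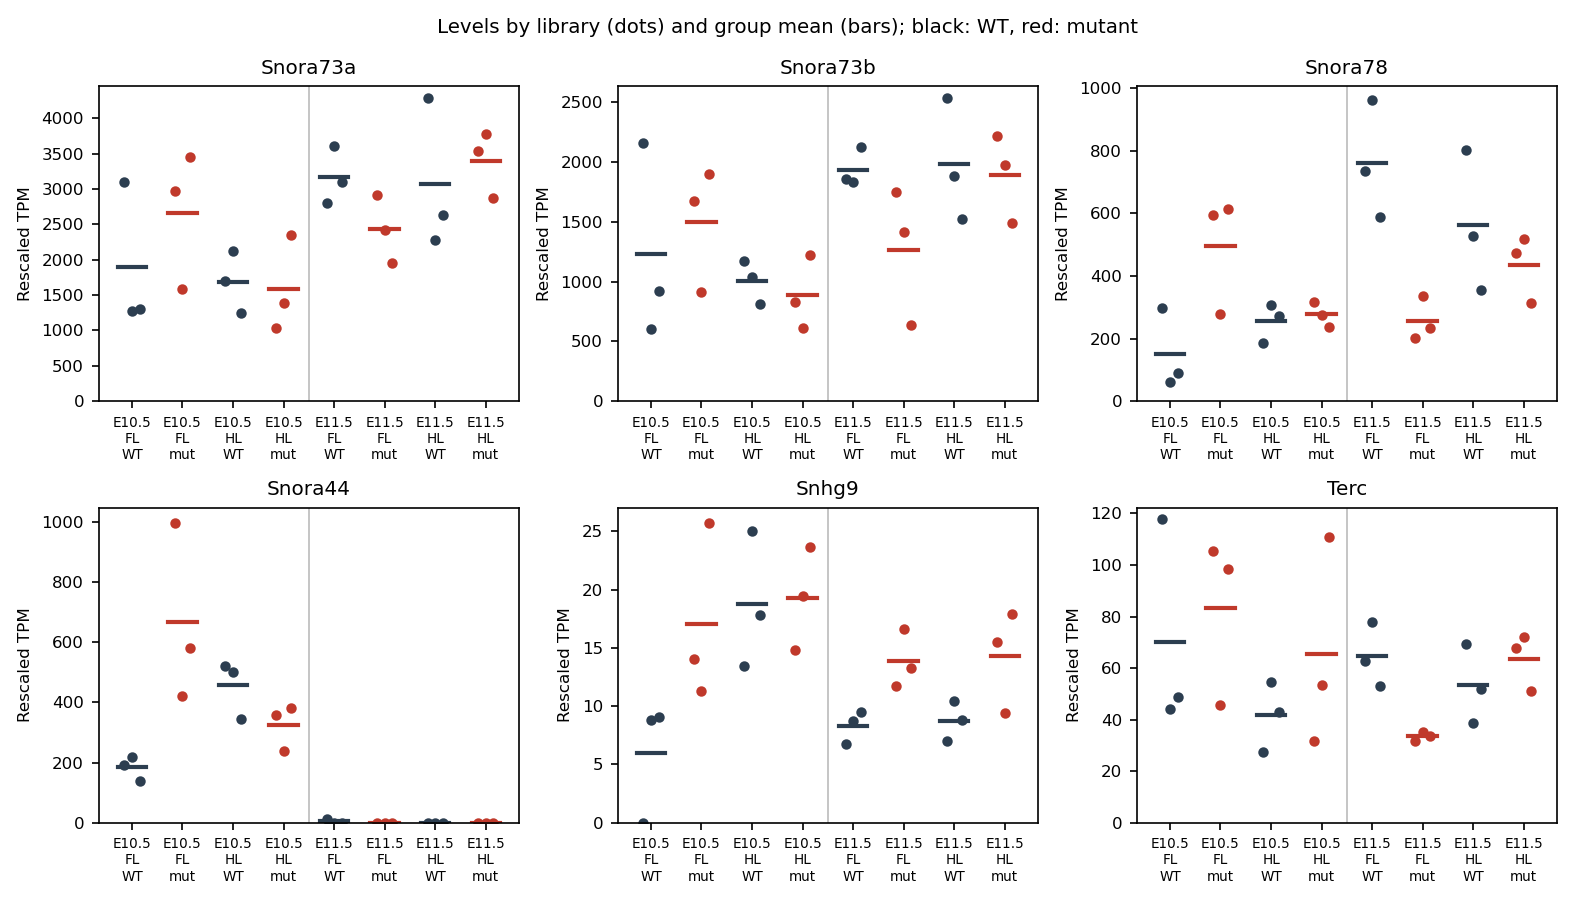
Rescaled TPM in each library (dots) and group means (bars) of the H/ACA snoRNAs Snora73a, Snora73b, Snora78 and Snora44, of the Snora78 host Snhg9 and of the telomerase RNA Terc, with WT in black and mutant in red. The 3 mutant dots of Snora78 in E11.5 FL (201 to 336) lie below the 3 WT dots (589.5 to 961), and Snora44 is at 0 in all but 1 E11.5 library.

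HL was compared with FL within each genotype to ask whether limb identity goes with the level of these RNAs. In E10.5 WT the members' median was 0.29 (24 higher in HL, 11 lower), none passed the threshold, beside 0.0920% of all genes, and 3 had an unadjusted p under 0.05. The groups did not overlap for 2 of 35 members, Snora24 and Snora44, beside 11.7% of all genes. Snora44 was 193, 219 and 139.9 in FL and 522, 500.4 and 346 in HL (1.31 ± 0.32, adjusted p = 0.204). Snora24 was 15.7, 11.3 and 0 in FL and 181, 54.7 and 43.0 in HL (3.70 ± 1.74, adjusted p = 0.541). In these 2 members every HL library was above every FL library. The FL WT libraries are also those of the E10.5 FL comparison of mutants with WT above, so the 2 comparisons are not independent. Other large differences were those of Snora52 (2.81 ± 1.18) and of Snora65 (-3.41 ± 1.60), which was listed at 0 in all 3 HL libraries and was 32.8, 0 and 34.3 in FL.

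In E10.5 mutants 31 of 35 members were lower in HL than in FL and 4 higher, with a median of -0.82, beside -0.02 for all genes. No member passed the threshold, beside 0.0586% of all genes, 4 had an unadjusted p under 0.05, and the smallest adjusted p was 0.589. For 5 of 35 the groups did not overlap (Snora17, Snora44, Snora62, Snora64 and Snora81), beside 17.4% of all genes. Snora44 was 998, 421 and 580.5 in FL and 359, 238 and 381 in HL, so that all HL libraries were lower (-0.97 ± 0.32, adjusted p = 0.589), opposite to WT. On TPM as deposited these groups of Snora44 overlapped. The largest falls by log2 were those of Snora30 (-2.85 ± 1.81), Snora61 (-2.52 ± 1.61) and Snora62 (-2.24 ± 1.23), and the largest rise that of Snora43 (4.05 ± 1.94), which was listed at 0 in all 3 FL mutants. This comparison shares the mutant FL libraries with the mutant comparison above. Among them, replicate 3 had summed hindlimb markers of 21.0 rescaled TPM. The members' median lay between -1.16 and -0.61 when each library was left out in turn, and the change of Snora44 between -1.25 and -0.63. Over all 14 alternatives the change of Snora44 lay between -1.25 and -0.24. All 9 tested erythroid markers were lower in HL than in FL mutants, with an unadjusted p under 0.05 for each and no adjusted p under 0.359, and their part in the result was not tested. The members' median was -0.24 on TPM as deposited, where that of all genes was 0.45. Scaled to snoRNA genes it was -0.10, where that of all genes was 0.56. Without the 4 mutant libraries with Xist it was -0.028.

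The difference of the mutant effect between limbs at E10.5 had a median of -1.23 over the members (3 higher, 32 lower). No member passed the threshold, and 0% of all genes did. A total of 3 members had an unadjusted p under 0.05. Snora44 had the smallest of these (-2.27 ± 0.45, limma adjusted p = 1).

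At E11.5 the members' median HL minus FL difference was 0.15 in WT (13 higher, 6 lower) and 0.66 in mutants (15 higher, 4 lower). None passed the threshold in either, beside 0.144% of all genes in WT and 0.440% in mutants, and 0 members in WT and 2 in mutants had an unadjusted p under 0.05. In WT 1 of 19 members had groups without overlap, beside 12% of all genes. It was Snora5c, which overlaps an exon of Tbrg4, at 17.1, 9.73 and 43.6 in FL and 93.4, 90.0 and 57.6 in HL (1.95 ± 1.50, adjusted p = 0.821). In mutants it was Snora24, in an exon of the noncoding host Snhg8, at 43.5, 7.25 and 28.6 in FL and 59.2, 79.2 and 52.9 in HL (1.53 ± 1.28, adjusted p = 0.549), beside 21.9% of all genes. Both differences were within the spread of the fit. Scaled to snoRNA genes the mutant median was -0.14, beside -0.66 for all genes, where the reported fit had 0.66 beside -0.02. Snora78 was 201, 336 and 234 in FL mutants and 472, 518 and 314 in HL mutants, where only the lowest HL value lay below the highest FL value (0.76 ± 0.31, adjusted p = 0.271). The difference of the mutant effect between limbs had a median of 0.39 over the members (12 higher, 7 lower). None of them passed, beside 0.00899% of all genes, and 3 had an unadjusted p under 0.05.

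The H/ACA snoRNAs varied between replicate libraries more than most genes. Their residual SD within groups had a median of 1.28 (log2) over 35 members at E10.5 and 0.72 over 19 at E11.5, beside 0.23 and 0.14 for all genes. Among genes with a mean log2 level of 6 or more it was 0.75 over 17 members beside 0.26 over 659 genes at E10.5, and 0.52 over 10 members beside 0.18 over 492 genes at E11.5. Length was not matched. TPM is scaled for length, so at equal TPM a member of 121 to 205 nt rests on fewer reads than a longer gene. The part of length in the spread was not tested. The spread was smallest for Snora44 at E10.5 (0.43) and Snora73a at E11.5 (0.31), and largest for Snora43 at both stages (2.82 and 3.43). The median change of 1.02 in E10.5 FL stood beside a median standard error of 0.88 for a member there.

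**Figure D4:**
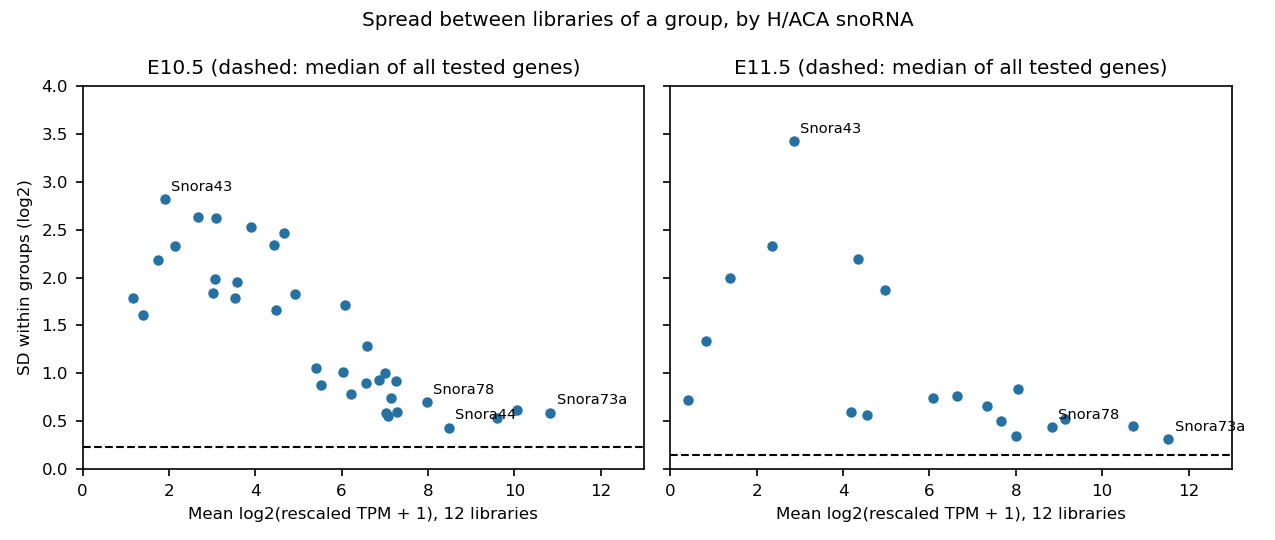
Residual SD of log2(rescaled TPM + 1) within groups against the mean level, 1 dot per tested H/ACA snoRNA (35 at E10.5, 19 at E11.5), with the median of all tested genes as a dashed line (0.23 and 0.14). Every dot lies above the dashed line, and members with a low mean have the largest spread.

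The host genes were tested in the same fit. Of 33 host genes tested at E10.5 and 31 at E11.5, 1 passed the threshold in the comparisons of mutants with WT. This was Snhg3, a host of Snora73a and Snora73b, which rose in E11.5 FL mutants from 18.7, 27.0 and 18.6 to 47.0, 34.3 and 39.4 rescaled TPM (0.89 ± 0.20, adjusted p = 0.0490, and 0.00220 to 0.137 over 14 alternatives). All mutant libraries of Snhg3 were above all WT libraries, while the means of Snora73a and Snora73b on the rescaled values were lower in mutants. Snhg9, the host of Snora78, was 6.80, 8.70 and 9.52 in E11.5 FL WT and 11.7, 16.6 and 13.2 in mutants, again without overlap (0.67 ± 0.22, adjusted p = 0.111), while Snora78 fell. Snhg12, the host of Snora44, differed little in E10.5 FL (0.21 ± 0.25). In E11.5 FL the member and its host had the same sign in 6 of 15 pairs, and in E10.5 FL in 22 of 32. The 11 ribosomal protein hosts had median changes of -0.03 in E11.5 FL and 0.24 in E10.5 FL, and none passed.

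A ratio of a snoRNA to its host within a library does not depend on the scaling. These ratios were chosen after the values were seen and were not tested. Snora78 per Snhg9 was 108, 110.5 and 61.9 in E11.5 FL WT and 17.1, 20.2 and 17.6 in mutants, and in HL it was 114, 50.4 and 40.5 in WT and 30.5, 54.9 and 17.5 in mutants. The FL groups did not overlap and the HL groups did. Snora73a and Snora73b together per Snhg3 were 249.7, 202 and 280.5 in E11.5 FL WT and 99.4, 112 and 66.0 in mutants. In HL they were 276, 275 and 209 in WT and 257, 216 and 139 in mutants. Per Rcc1, their other host, the pair was 296, 464 and 427 in E11.5 FL WT and 344, 256 and 161.5 in mutants, which overlapped. Snora44 per Snhg12 was 5.99, 14.0 and 8.75 in E10.5 FL WT and 38.2, 21.3 and 23.5 in mutants, and in HL 18.4, 15.5 and 16.9 in WT and 11, 7.27 and 13.8 in mutants. Here FL mutants were above FL WT and HL mutants below HL WT in every library.

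**Figure D5:**
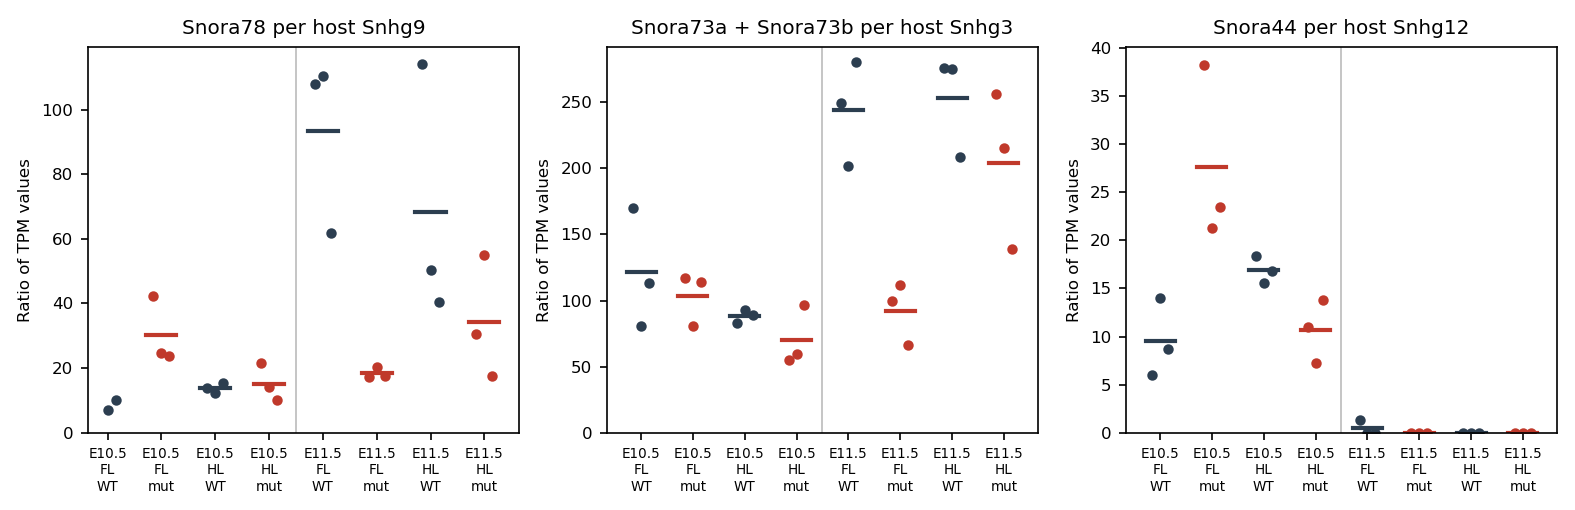
Ratio of an H/ACA snoRNA to its noncoding host RNA within each library (dots) with group means (bars), WT in black and mutant in red. In E11.5 FL both Snora78 per Snhg9 and Snora73a plus Snora73b per Snhg3 are lower in all 3 mutant libraries than in any WT library, and E10.5 FL WT replicate 1 has no Snora78 ratio because Snhg9 is listed at 0 there.

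The proteins of the H/ACA particle showed no change past the threshold. All 4 core proteins were tested, and none passed in any of the 10 comparisons. In E11.5 FL all 4 were higher in mutants on the rescaled values, by 0.11 for the pseudouridine synthase Dkc1, 0.13 for Nop10, 0.29 for Nhp2 and 0.17 for Gar1, with the smallest adjusted p at 0.216. None of 9 assembly factors such as Naf1 and Shq1 passed (7 of 9 higher in E11.5 FL, smallest adjusted p = 0.0570), nor did any of 12 pseudouridine synthases that work without a guide RNA (10 of 12 higher, 0.0680). Of 4 core proteins of box C/D particles 3 were tested and none passed (3 of 3 higher, 0.0639).

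Terc, the telomerase RNA, ends in an H/ACA domain and binds the same core proteins. It fell in E11.5 FL mutants, from 62.9, 77.8 and 53.0 rescaled TPM in WT to 31.6, 35.4 and 33.5, so that no mutant library reached a WT library (-0.91 ± 0.20, limma adjusted p = 0.0494, and 0.0481 to 0.197 over 14 alternatives). On TPM as deposited the change was -0.40 (adjusted p = 0.107). In E11.5 HL it was 69.5, 38.6 and 51.9 in WT and 67.7, 72.1 and 51.1 in mutants, with overlap (0.28 ± 0.20). The difference between limbs was 1.19 ± 0.29 (adjusted p = 0.281). At E10.5 its changes were 0.30 ± 0.50 in FL and 0.51 ± 0.50 in HL.

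Box C/D snoRNAs, the class most like the H/ACA snoRNAs, were fewer among the described genes, 10 of 83 symbols at E10.5 and 6 at E11.5, and none passed in any comparison. On the rescaled values their median changes in mutants were 0.78 in E10.5 FL (9 of 10 higher), -0.23 in HL of the same stage, -0.53 in E11.5 FL (5 of 6 lower) and -1.02 in E11.5 HL. The summed level of H/ACA snoRNAs per summed level of box C/D snoRNAs was 1.07 to 1.69 in E10.5 libraries and 1.67 to 2.95 in E11.5 libraries. No difference between the classes was tested.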

How the data were processed

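Total RNA libraries of 24 limb bud samples were grouped by the stage, limb and genotype given in the labels. The authors deposited TPM values per gene symbol, which sum to 1000000 in each library. HISAT2 and mm10 are named in the submitters' processing notes, and no source used here gives the quantifier, the annotation or the strand. Reads of E10.5 libraries alone lost 3 nt by trimming, per the labels, so stages were fitted apart. Each library was rescaled to an equal median log2 value over genes at 5 TPM or more in every library of the stage (4168 genes at E10.5, 3949 at E11.5). Genes at 1 TPM or more in 3 libraries of a stage were kept, and log2(rescaled TPM + 1) was fitted with limma 3.58.1 in R 4.3.3 (trend, 12 libraries, 8 residual degrees of freedom, two-sided, Benjamini-Hochberg adjustment over all tested genes, threshold 0.05). The procedure was tested on simulated data. Coordinates, hosts and sequences came from GENCODE M21 (36287 of 38019 symbols matched).

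Members, lists and tests were chosen with earlier results of these data known. Named genes are members past the threshold, the 5 most abundant per stage, the 3 largest rises and falls per comparison among members at a mean of 5 rescaled TPM or more in the higher group, Snora73a and Snora73b, their hosts, Rnu11 and the listed proteins. Others were chosen after their values were seen. Alternatives changed the scaling, the pseudocount (0.1), the filter, the libraries fitted, the replicate block and the libraries left out. Same-numbered E10.5 FL and HL mutant libraries deviated together (r = 0.106 to 0.198 over all tested genes for the 3 pairs), beside up to 0.11 for differently numbered ones. In E10.5 WT same-numbered FL and HL libraries had r = 0.0662 to 0.286, beside up to 0.0353. The numbers may therefore pair E10.5 samples, which the labels do not say.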

Additional observations from a re-analysis of the deposited data

Results flagged for a closer look

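Snora44 differed between FL and HL in opposite directions in the 2 genotypes at E10.5. On the rescaled values all 3 HL libraries were above all 3 FL libraries in WT and below them in mutants. On TPM as deposited the mutant groups overlapped, at 769, 470 and 350 in FL and 578, 321 and 305 in HL. FL mutant replicate 3 was the FL library with raised hindlimb markers. The test of this difference, the mutant effect in HL minus that in FL, gave -2.27 (log2, limma adjusted p = 1 over all tested genes), so it did not pass the correction. The value lay between -2.56 and -1.28 over 19 alternatives, with adjusted p from 0.266 to 1.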

How the results depend on the processing

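No result changed direction in a called value. Of 266 recomputed counts and medians 245 stayed the same by the stated tolerance and 21 moved. The count of members past the threshold was 0 in E11.5 FL, in place of 1, without a filter on low values, with only the libraries compared, scaled to snoRNA genes and without the Xist library, and 0 to 1 when each library was left out in turn. Scaled to snoRNA genes the counts were 4 for mutants in FL at E10.5 and 1 in HL, 3 in E10.5 WT HL against FL, 1 in E10.5 mutant HL against FL, 1 for the difference of the mutant effect at E10.5 and 1 in E11.5 mutant HL against FL, all 0 in the fits reported. That scale equalizes the snoRNAs themselves, over 24 genes at E10.5 and 15 at E11.5. Groups without overlap were counted on the rescaled values only, and which members overlap changes with the scale. On TPM as deposited 1 member, Snora2b, passed in E11.5 mutant HL against FL (2.16, adjusted p = 0.0356), and 3733 genes passed in E11.5 FL in place of 194. The median of members in E10.5 mutant HL against FL was -0.24 on TPM as deposited, -0.10 scaled to snoRNA genes and -0.028 without the libraries with Xist. The median was 0.32 in E10.5 FL without those libraries, and -0.14 in E11.5 mutant HL against FL scaled to snoRNA genes. The medians of all genes moved with the scale as well. In E10.5 mutant HL against FL they were 0.45 as deposited and 0.56 scaled to snoRNA genes. In E11.5 mutant HL against FL scaled to snoRNA genes it was -0.66. The cause was not tested. With the replicate number as a block the count in E11.5 FL was 1 and no other member passed, while the adjusted p of Terc was 0.0794 and that of Snhg3 0.0910. Only the E10.5 FL and HL mutant numbers met the pairing criterion, r above 0.1 for every same-numbered pair. TPM gives no depth, so the reads behind a value are unknown. Deposited values moved in even steps within a library. In E10.5 FL WT replicate 3 they were 9.25 (Snora28), 18.5 (Snora15), 27.75 (Snora30) and 37 (Snora33). In E11.5 HL mutant replicate 3 they were 31.25 (Snora33), 156.2 (Snora68) and 312.5 (Snora78). Members, including Snora78, may therefore rest on few reads, which was not tested.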

Other observations

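In E10.5 HL WT replicate 1, Snora64 was 803 rescaled TPM and Snora33 was 470.0, while the other 11 libraries of that stage held 41.4 to 277 and 40.7 to 151. Snora64 overlaps an exon of Rps2 and Snora33 an exon of Rps12, both genes of small ribosomal subunit proteins. That library was also 1 of the 2 with 23 members above 0.

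Snora43 was either listed at 0 or at 11 to 82.4 rescaled TPM. It was above 0 in 4 of 12 E10.5 libraries and 6 of 12 E11.5 libraries, with both kinds of value in 7 of the 8 groups. It lies 1204 bp from Snora17, which was above 0 in all 24 libraries, and the 2 are 67.8% identical.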
